A study of Mus musculus with 2 samples.

Results

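Vax2 is a homeobox gene on mouse chromosome 6, and 7 H3K27me3 regions were listed at its locus in wild-type rib chondrocytes, of 2017 regions in the whole list. The regions were chosen by the gene names of the deposited list, which names every gene within 5000 bp of a region that the caller had found enriched, and all regions naming Vax2, Vax2os1 or Vax2os2 were taken, each counted once. They made up 16 lines of the list. The locus itself was chosen with earlier results of these data known. Because enrichment over input decided which regions were listed, their enrichment is described here and not tested. The mark was mapped by ChIP-seq with 1 H3K27me3 ChIP library and 1 input library, with no replicates. The chondrocytes came from the ribs of 11 wild-type CD1 mice at postnatal day 2.5 and were pooled, so that animals cannot be told apart, and were cultured overnight on 2 dishes with 5% FCS. No gene was deleted and no agent was given, and the input library held the same chromatin without the antibody.

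H3K27me3 is the trimethylated form of histone H3 that PRC2 writes, and broad domains of it lie over silent developmental genes in many cell types. Vax2 encodes a homeodomain transcription factor of the ventral optic vesicle and ventral retina, where it acts with its paralogue Vax1 in dorsoventral patterning of the eye. Vax2os transcripts are long non-coding RNAs transcribed from the strand opposite to Vax2. RefSeq lists Vax2os1 and Vax2os2 as synonyms of 1 gene, Vax2os, so that the 3 names stand for 2 RefSeq genes. No expression was measured in these libraries, so whether any of these transcripts was made is not known from them.

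The locus is arranged head to head. From the distances in the list (mm9), the 5′ end of Vax2 lay at position 83661258 of chromosome 6, and the gene ran towards higher coordinates. The 5′ end of Vax2os1 lay 332 bp upstream of it, and that of Vax2os2 lay 937 bp downstream of it, inside Vax2. Vax2os2 ran towards lower coordinates as far as 83642800, over 19396 bp, so that both opposite-strand transcripts left the locus in the direction away from the body of Vax2. The RefSeq promoter table holds 2 promoters of Vax2os, each with 250 bases before and 50 bases after a transcript start, on the minus strand of GRCm38.p6. They are shown because the mark lay around the listed starts of these transcripts and because CG dinucleotides, in capitals, are a common feature of DNA bound by PRC2.
Vax2os, chr6:83710776-83711075: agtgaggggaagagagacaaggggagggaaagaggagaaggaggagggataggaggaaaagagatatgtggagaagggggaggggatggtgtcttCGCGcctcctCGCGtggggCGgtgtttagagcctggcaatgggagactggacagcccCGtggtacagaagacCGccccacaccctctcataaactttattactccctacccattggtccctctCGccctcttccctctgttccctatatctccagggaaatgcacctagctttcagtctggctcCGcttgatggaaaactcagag
Vax2os, chr6:83712152-83712451: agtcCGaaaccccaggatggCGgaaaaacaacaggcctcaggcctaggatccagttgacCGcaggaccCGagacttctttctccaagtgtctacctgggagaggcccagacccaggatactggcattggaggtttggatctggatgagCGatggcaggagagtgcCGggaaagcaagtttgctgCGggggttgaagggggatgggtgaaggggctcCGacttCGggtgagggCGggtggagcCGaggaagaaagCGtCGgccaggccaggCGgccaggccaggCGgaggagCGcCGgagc
The first held 9 CG dinucleotides and the second held 17, and the median of all 32851 promoters in the table was 7. Promoters with at least as many made up 45.8% and 31.4% of the table. In the second promoter 12 of the 17 lay in the 150 bases at the transcript start, and in the first promoter 4 of the 9 did. The promoters were 1376 bp apart on GRCm38.p6, and the 5′ ends of Vax2os1 and Vax2os2 were 1269 bp apart in the list. These promoters were not placed on the regions, whose positions are on another build, and the table does not say which of the names each belongs to.

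**Figure D1:**
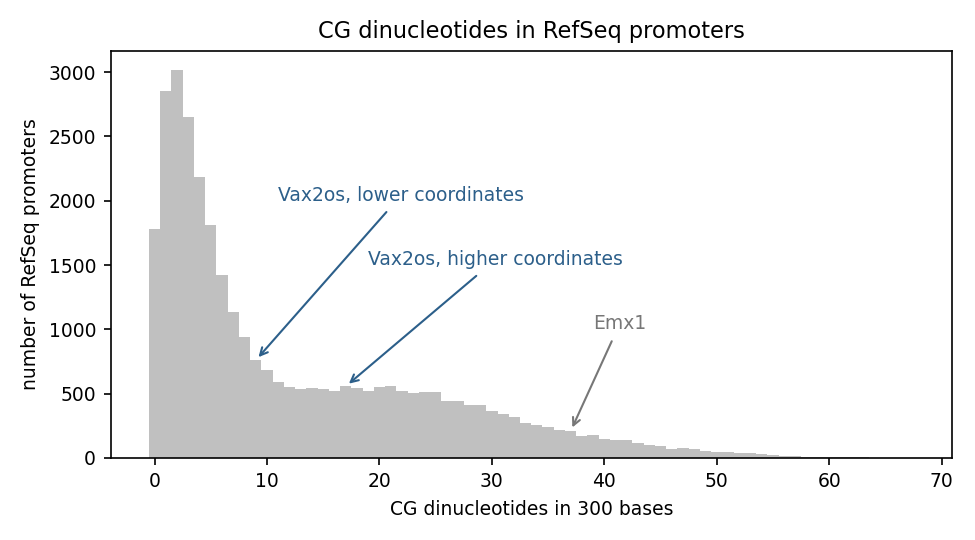
The x axis gives the number of CG dinucleotides in 300 bases and the y axis the number of RefSeq promoters with that number. The Vax2os promoters, with 9 and 17, lie above the median of 7, and the Emx1 promoter, with 37, lies further to the right. Not marked are the promoters of Vax1, with 17, and of Emx2, a gene that no region named, with 26.

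Around these starts the mark formed a domain of 6 regions from 83656131 to 83671497, and a further region lay on its own near the 3′ end of Vax2os2. The domain spanned 15367 bp, of which 81.6% was in regions. The 7 regions together covered 14116 bp and held 777 ChIP tags (mapped reads) and 76 input tags. ChIP tags were thus 10.2 times the input tags (95% Clopper-Pearson interval 8.07 to 13.1). This ratio takes no account of library depth, since the totals of the libraries are not in the list. Over all 2017 regions the same ratio was 7.47. Intervals given here are for counting error alone and assume independent tags, and with 1 library the variation between cultures is unknown. In ChIP tags per kb the locus, at 55.0 (exact Poisson interval 51.2 to 59.1), was close to the 54.1 of all regions, whereas its input was 5.38 tags per kb against 7.25 over all regions. The higher ratio thus went with fewer input tags and not with more ChIP tags per kb. The values for all regions are pooled, and the median region had 6.22 input tags per kb.

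**Figure D2:**
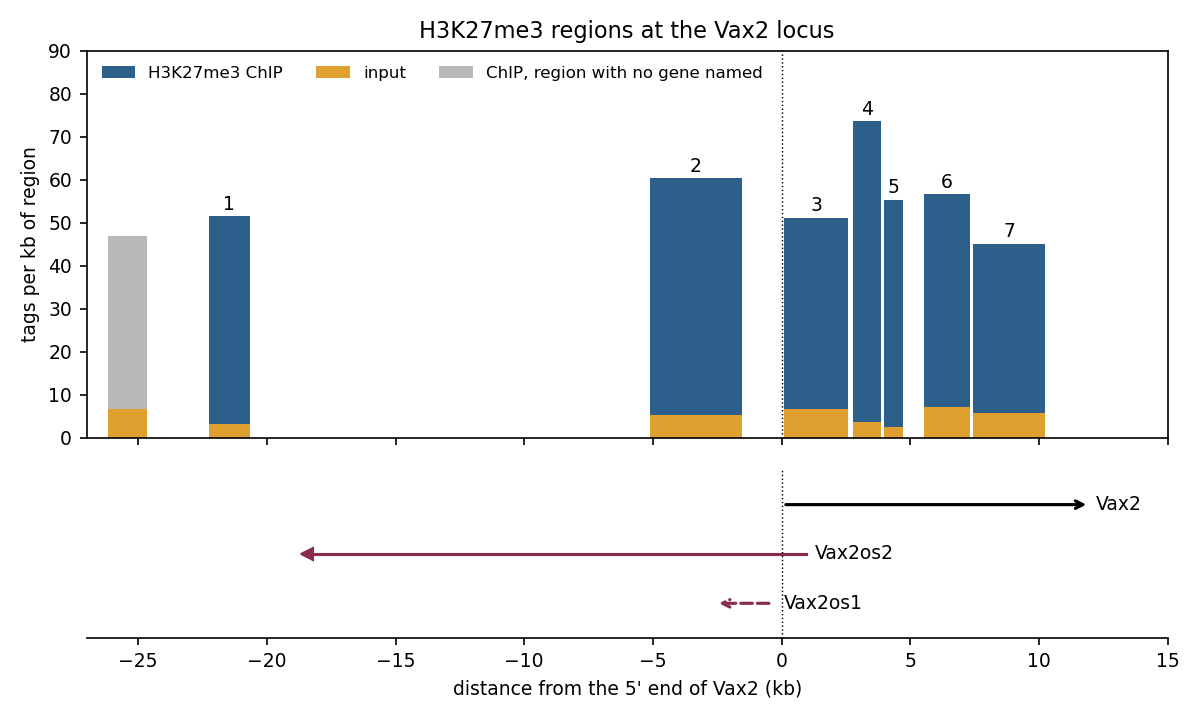
The x axis gives the distance from the 5′ end of Vax2 in kb, and bars give tags per kb of each region for ChIP and, in front of it, input, with region numbers above. Arrows show the direction of each transcript. The ends of Vax2 and Vax2os1 are not in the list and are drawn at an arbitrary length. Regions 2 to 7 form the domain, with a gap at the 5′ end of Vax2, and the grey bar is the neighbouring region for which the list names no gene.

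Region 1 (chr6:83639015-83640586) lay 2214 bp beyond the 3′ end of Vax2os2, the only transcript it named, and 15544 bp from the domain. It held 81 tags in ChIP against 5 in input, a ratio of 16.2 (6.66 to 51.2). Beyond it, at chr6:83635099-83636589, a region was listed that held 70 tags in ChIP against 10 in input, a ratio of 7.0 (3.59 to 15.2). That region was 6211 bp from the 3′ end of Vax2os2 and so fell just outside the distance at which genes were named, although only 2425 bp separated it from region 1. Region 1 thus belonged to a pair of regions at the far end of Vax2os2, apart from the domain at the transcript starts.

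Region 2 (chr6:83656131-83659722) held the most ChIP tags of the locus and lay upstream of Vax2, within Vax2os2 and overlapping Vax2os1. It was 3592 bp long and held 217 tags in ChIP against 19 in input, a ratio of 11.4 (7.14 to 19.3). The caller ranked it 36 of 2017 regions. It exceeded 97.9% of the listed regions in ChIP tags, 97.2% in length and 81.8% in ChIP tags per kb. Its highest point, with a height of 11.1 in the smoothed tag profile, lay 2218 bp upstream of the 5′ end of Vax2. Region 2 named all 3 transcripts, and it overlapped both opposite-strand transcripts but not Vax2, from which it ended 1536 bp away.

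Between regions 2 and 3 the list had a gap of 1631 bp, and both the 5′ end of Vax2 and that of Vax2os1 lay in it. Region 3 (chr6:83661354-83663852) began 96 bp downstream of the 5′ end of Vax2. It held 128 tags in ChIP against 17 in input, a ratio of 7.53 (4.52 to 13.3), with its highest point 334 bp into the gene. The 5′ end of Vax2os2 lay inside region 3, 841 bp from its left edge. Region 3 was thus the only region of the locus over any of the 3 transcript starts. Of all 922 named genes, 9.87% had a region over the 5′ end. Vax2 and Vax2os1 thus had a gap at the start with regions on both sides. Of 318 genes whose 5′ end could be placed from the list, 118 had such a gap, of any width (37.1%). All 318 had 2 or more regions, so this share and the 9.87% are of different sets of genes. The height needed for listing was just over 8, and the height of region 3 was only 8.02, and signal under that limit in the gap would not be in the list.

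Regions 4 to 6 lay inside Vax2 and region 7 overlapped it, from 2761 to 10239 bp downstream of its 5′ end, with gaps of 86, 816 and 124 bp between them. Region 4 (chr6:83664019-83665132) held 82 tags in ChIP against 4 in input, a ratio of 20.5 (7.71 to 77.0), and region 5 (chr6:83665219-83665977) held 42 against 2, a ratio of 21.0 (5.46 to 179). Region 6 (chr6:83666794-83668578) held 101 tags in ChIP against 13 in input, a ratio of 7.77 (4.34 to 15.1). Region 7 (chr6:83668703-83671497) held 126 tags in ChIP against 16 in input, a ratio of 7.88 (4.66 to 14.2), and it named Vax2 alone. The intervals of all 7 ratios overlap, and the higher values of regions 4 and 5 rest on only 4 and 2 input tags. Whether these 2 regions differ from the others was not tested. The 2 regions upstream of the 5′ end of Vax2 had a joint ratio of 12.4 (8.19 to 19.7) and the 5 downstream of it one of 9.21 (6.91 to 12.5), again with overlapping intervals.

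**Figure D3:**
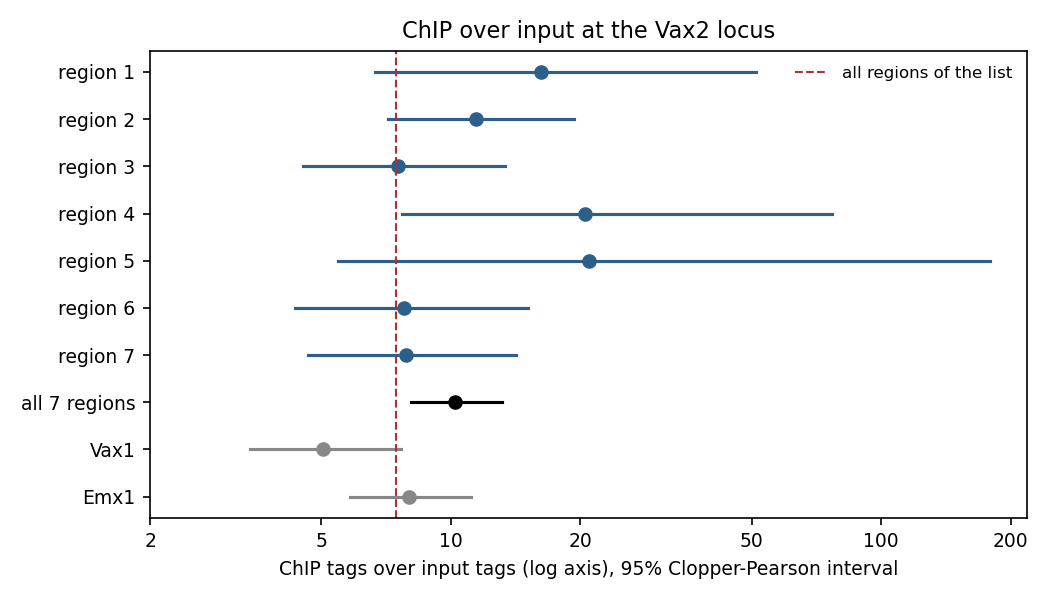
The x axis gives ChIP tags over input tags on a log scale, and rows are the 7 regions, their total, and the totals of Vax1 and Emx1. Lines are 95% Clopper-Pearson intervals, which cover counting error only, and the dashed line is the 7.47 pooled over all regions. The interval of the locus total, 10.2, begins at 8.07, to the right of the dashed line. It holds 8.42, the median ratio of genes with at least 4 regions. The intervals of regions 1, 2, 3, 5, 6 and 7 cross the line. No difference from the line was tested.

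ChIP tags per kb differed along the locus. Region 4 had 73.6 ChIP tags per kb (exact Poisson interval 58.5 to 91.4), more than 98.5% of all listed regions, and the greatest height of the locus, 11.3. Region 7, at the far end of the domain, had 45.1 (37.6 to 53.7), more than only 2.23% of listed regions, although its height of 10.1 exceeded that of 87.8%. The intervals of regions 4 and 7 do not overlap, but these regions were picked as the highest and lowest of the 7. Their difference was not tested. The other 5 regions lay between regions 4 and 7, from 51.2 in region 3 to 60.4 in region 2. Across all 2017 regions longer ones had fewer ChIP tags per kb (Spearman's rho -0.51, a description across regions of 1 library whose length enters both measures). Of the 56 regions at least as long as region 2, itself included, 14 had at least its number of ChIP tags per kb, and their median was 51.8.

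**Figure D4:**
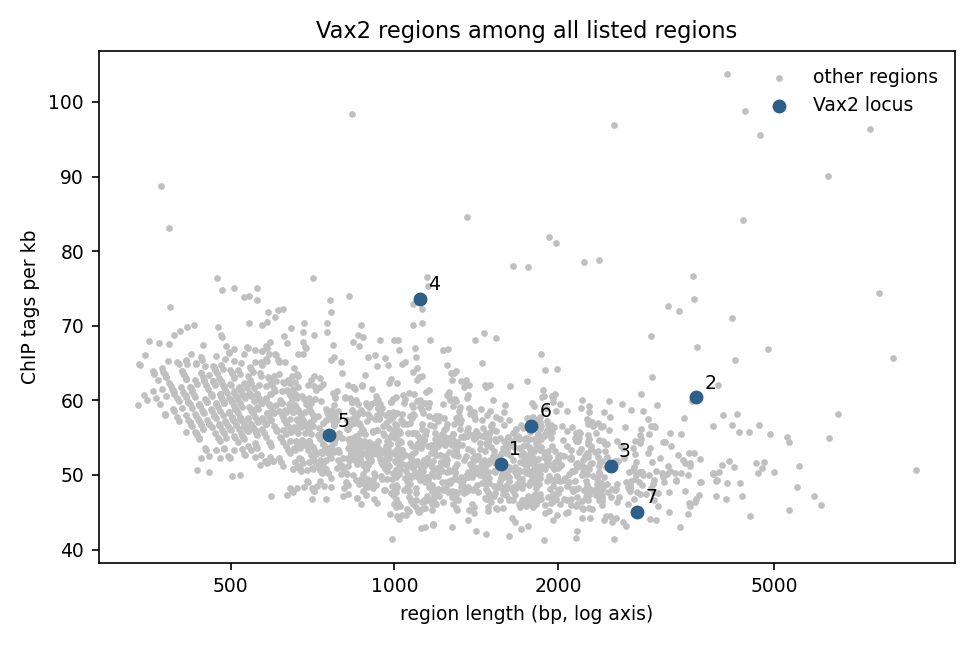
The x axis gives the length of each region in bp on a log scale and the y axis its ChIP tags per kb, for all 2017 regions in grey and the numbered regions of the locus in blue. Region 4 lies near the top of the cloud at its length, with 73.6 tags per kb, and region 7 near the bottom, with 45.1.

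The deposited tag enrichment was 5.60, 6.57, 5.57, 7.999, 6.01, 6.15 and 4.90 for regions 1 to 7. In all 7 the input used for it was a floor of 9.20 tags per kb, above the input tags measured there, as in 76.9% of all regions. The order of these values is therefore the order of ChIP tags per kb, with region 4 at the top, above 99.7% of listed regions. The heights of regions 2, 4 and 7 were at least 10, which 13.1% of all regions reached, and those of the other 4 lay between 8.02 and 8.85. Region 6 stood apart in input, with an input height of 2.52, greater than in 97.7% of listed regions, and its height ratio of 3.37 was the lowest of the locus. The other 6 regions had input heights of 0.904 or less. The part of this input in the ratio of region 6 was not tested.

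Counted by gene, Vax2 was named by 6 regions, with 696 tags in ChIP against 71 in input over 12544 bp, a ratio of 9.80 (7.67 to 12.7). Of the 922 named genes, 13 had at least 6 regions (1.41%), and Vax2 and Vax2os2 were among them. In ChIP tags Vax2 ranked 5 of 922, after Raet1a, LOC547349, Raet1b and Raet1c, and just above Cdh22 with 694, Prdm12 with 693 and Skap1 with 637. These sums include regions shared with neighbouring genes. The higher totals had lower ratios, from 3.62 at Raet1b and Raet1c to 5.95 at LOC547349, whereas Cdh22 had 10.2 (7.95 to 13.3). Among the 74 genes with at least 4 regions, 8.03% of the named genes, the ratio ranged from 3.62 to 14.4 with a median of 8.42, and 19 were above Vax2 and 54 below it. By bp in regions Vax2 also ranked 5 of 922. Its ratio was higher than that of 64.2% of the named genes.

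Vax2os2 was named by 6 regions, with 651 tags in ChIP against 60 in input, and Vax2os1 by 4, with 469 against 42. Their ratios were 10.9 (8.32 to 14.4) and 11.2 (8.13 to 15.7). Most of these tags were those already counted for Vax2, since 4 regions named all 3 transcripts, and region 1 alone was Vax2os2's own. Only 2.23% of listed regions named 3 or more genes. Regions overlapped Vax2 itself in 5 cases, Vax2os2 in 2 and Vax2os1 in 1. By number, most regions counted for the opposite-strand transcripts thus lay beside them. The 2 regions over Vax2os2 held 217 and 128 of its 651 ChIP tags, and the 1 over Vax2os1 held 217 of its 469.

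Other transcripts named after a gene on the opposite strand offer a like arrangement. Besides the Vax2 transcripts the list named 11 of them, with 1 to 4 regions each and 46 to 482 ChIP tags (median 131), and 8 shared at least 1 region with the partner gene. Six3os1, beside the eye and forebrain regulator Six3, shared 3 of its 4 regions with it and had 390 ChIP tags. Hoxa11as, opposite the limb patterning gene Hoxa11, had 482 ChIP tags and shared 2 of 3 regions. Vax2os1 shared 4 of its 4 regions with Vax2 and Vax2os2 shared 5 of 6, and the highest number among the others was 3. Pax6os1 and Otx2os1 shared 0 regions with Pax6 and Otx2, although both partners were named. Dio3os shared 3 of 3 regions, Dlx1as and Dlx6as 2 of 2 each, and Msx1as and Nphs1as 1 of 1 each. Sharing of all regions was thus not particular to Vax2os1. Dlx6os1 shared 2 of 3. Sharing follows in part from how close the transcripts lie to each other, since a region names every gene within 5000 bp of it.

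**Figure D5:**
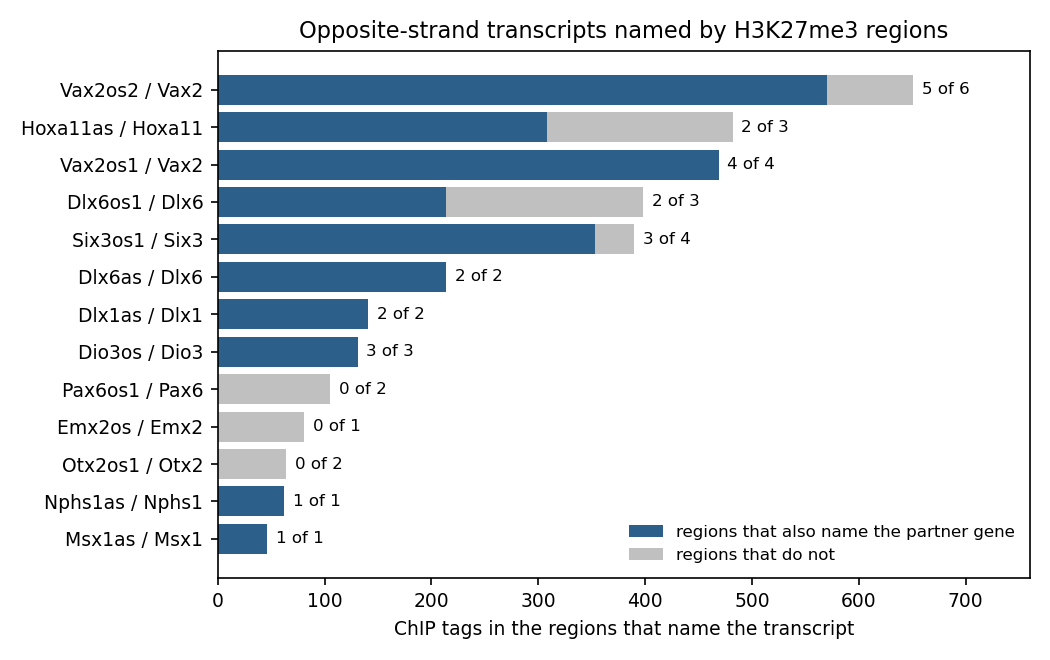
Each row is an opposite-strand transcript and its partner gene, and the x axis gives the ChIP tags in the regions that name the transcript, split by whether the region also names the partner. Labels give shared regions of all regions. Vax2os2, with 651 ChIP tags, is the longest bar. All 4 regions of Vax2os1 are shared with Vax2. Dio3os, Dlx1as, Dlx6as, Msx1as and Nphs1as also share all their regions with their partners.

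Among the nearest homeobox relatives of Vax2, Vax1 and Emx1 were named and Emx2 and Noto were not. Vax1, the paralogue on chromosome 19, had 2 regions with 156 tags in ChIP against 31 in input, a ratio of 5.03 (3.41 to 7.66), and neither overlapped the gene. Emx1, a forebrain regulator on chromosome 6, had 3 regions with 359 tags in ChIP against 45 in input, a ratio of 7.98 (5.84 to 11.1). At Vax1 and Emx1, as at Vax2, regions lay on both sides of the 5′ end with none over it, the nearest at 1724 and 1393 bp against 96 bp at Vax2. At Vax1 the stretch without a region held the whole gene, with the downstream region 287 bp beyond its far end. For Emx2 only the opposite-strand transcript Emx2os was named, by 1 region with 81 tags in ChIP against 6 in input. Vax2 had more regions and more tags than either named relative. The intervals of the ratios of Vax2 and Emx1 overlap. That of Vax1 ends at 7.66, just below the 7.67 at which that of Vax2 starts. Both intervals cover counting error only, and no difference between these genes was tested.

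Vax2 was also set beside 36 other genes that regulate the optic vesicle, retina and lens. Of these, 19 were named by a region (52.8%), against 3.90% of RefSeq protein-coding genes. The list is made up largely of developmental transcription factors and was written with earlier results of these data known, so this share is given as a description. Pax2, which works with the Vax genes in the optic stalk, had 7 regions and 530 ChIP tags. Six3 had 4 regions with 493 ChIP tags and Tbx5, a dorsal retina factor, had 5 with 322. Cyp26c1 and Cyp26a1, which break down retinoic acid, had 4 and 2 regions, and Six6, Tbx2, Bmp4, Shh, Isl1 and Pitx3 were among the genes with 1. Lhx2, Otx2, Pax6, Prox1 and Sox2 had 3 regions each and Hes5 had 2. The 19 genes had a median of 2 regions and 156 ChIP tags, with at most 530, against 6 and 696 at Vax2. Vax2 was itself chosen with earlier results of these data known, and this difference was not tested. The other 17 genes were not named, among them the retinal homeobox genes Rax, Crx and Vsx1, the pigment cell factor Mitf, the ephrin genes Efnb1 and Efnb2 and their receptors Ephb2 and Ephb3. Of 11 cartilage genes looked up by name, including Sox9, Col2a1 and Acan, 0 were named by a region, which cannot be told from the 3.90% of RefSeq protein-coding genes with so few genes. A gene without a listed region may carry signal below the height of 8.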

How the data were processed

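Rib chondrocyte chromatin was sequenced after H3K27me3 ChIP and without it (input), with 1 library each. The authors mapped the reads to mm9 with the DNAnexus mapper and called regions with QuEST, and versions and settings are not given in the sources used here. The deposited tag counts are whole numbers of ChIP and input tags per region, without normalization. The deposited heights are the signal of a smoothed tag profile, the deposited tag enrichment and height ratio are ratios with the input set to at least a floor, and the deposited q-values are on a −log10 scale. The floor of 9.20 tags per kb was constant when both region ends were counted in the length, so lengths include both ends.

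Regions were grouped by gene name, and transcript 5′ ends were placed from the distances in the list. Ratios of ChIP to input tags have 95% Clopper-Pearson intervals, and ChIP tags per kb have exact Poisson intervals. Both cover counting error only, and the depth of the libraries was not used here. The median of all regions, 56 ChIP tags and 7 input tags, sets the precision. No test across genes was made. The intervals and the placing of 5′ ends were checked on simulated data. Of the 922 names, 912 matched a RefSeq symbol or synonym (GRCm38.p6). Members, lists and named genes were chosen with earlier results of these data known. The named genes were Vax2 and its transcripts, the listed genes of the eye, family and opposite-strand lists, the neighbouring loci, and the genes with the nearest tag totals, with no more than 2 of them above the locus. Opposite-strand names end in os or as, with or without digits, after another gene symbol. Chondrocyte identity was not checked, since no expression was measured. A promoter of Vax2 and the genome sequence of mm9 were not used here. Alternatives were a q-value limit, a height limit, limits on the distance to the gene, merged regions, Vax2 alone and other ways to treat input. The software was scipy 1.17.1, pandas 2.3.3, numpy 2.4.6 and matplotlib 3.10.9 under Python 3.11.15.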

Additional observations from a re-analysis of the deposited data

How the results depend on the processing

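Of 38 recomputed values, 26 stayed within 1.5 times the reported count or within the interval of the reported value, and 12 moved. No other outcome was defined. Regions that overlap the gene and regions that name Vax2 were the same 6 regions with 12544 bp at the locus. Their values there are therefore counted under both settings. A q-value limit of 0.01 left out no region and so tests nothing, although its values are among the 26. With a ChIP height of at least 10, 3 regions and 7501 bp remained at the locus, with 7 of 20 eye genes and 5 of 13 opposite-strand transcripts, counts that include Vax2 and its own transcripts. With regions within 2500 bp of a 5′ end, 3 regions, 7205 bp and 59.3 ChIP tags per kb remained, with 13 of the 20 eye genes and 7 of the 13 opposite-strand transcripts. When regions within 3000 bp were merged, the locus had 2 regions and 40.6 ChIP tags per kb, since the merged lengths include gaps and the merging also took in the neighbouring region that names no gene, with its 70 ChIP tags. With input set to at least the floor, the ratio of the locus was 5.98. The deposited tag enrichment, which uses the same floor, had a median of 5.70 over all regions. In the other alternatives the ratio ranged from 9.80 to 10.9. No paired analysis was possible because there is 1 library of each kind and no test.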

Other observations

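The nearest named loci on either side of the Vax2 locus on chromosome 6 were looked up. Towards lower coordinates, beyond 2 regions with no gene named, the next named regions lay 602779 bp away, at a group of 4 regions around Tlx2, Lbx2, Dqx1 and Pcgf1 with 403 tags in ChIP against 54 in input, or 7.46 times as many (Clopper-Pearson interval at 95%, 5.61 to 10.1). Tlx2 and Lbx2 are homeobox genes, and Pcgf1 encodes a Polycomb ring finger protein. Beyond them came Chn2 and Evx1, at 29611165 and 31370786 bp. Towards higher coordinates no region was listed for 1461602 bp, as far as Emx1. Gata2, with 50 ChIP tags in 1 region, lay 4473561 bp away and Wnt7a, with 114 in 2 regions, lay 7685029 bp away. The ratios of Gata2 and Wnt7a, 8.33 (3.57 to 23.8) and 9.50 (5.23 to 18.9), had intervals that overlap that of the Vax2 locus, 10.2 (8.07 to 13.1).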
